A study of Rattus norvegicus with 18 samples.

Results

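Glutathione synthesis and its cystine supply were followed in rat kidney through 10 genes of the 22084 measured. They were taken as a pathway and not by a threshold on measured values: the cystine carrier Slc7a11, the synthesis enzymes Gclc, Gclm and Gss, the reductase Gsr, the surface enzyme Ggt1 and the glutathione peroxidases Gpx1, Gpx2, Gpx3 and Gpx4. All 10 were found, each on 1 transcript cluster of the array that names only that gene. The kidneys came from Sprague-Dawley rats that had received normal saline or cadmium chloride and were harvested at 1 day, 6 weeks or 12 weeks, and total RNA of whole kidney was hybridized to Affymetrix arrays. Saline at each time served as the control of the cadmium group of the same time, with 3 arrays labelled as biological replicates in each of the 6 groups, 18 in all. The labels used here give no dose, route, age or genetic change, and nothing in them says whether an array holds RNA of 1 animal or of several.

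Glutathione is a small peptide built from glutamate, cysteine and glycine, and cysteine is usually the scarce building block. Cells take it up largely as cystine, and glutamate-cysteine ligase, then glutathione synthetase, join the parts. Peroxidases spend glutathione to remove peroxides and glutathione reductase restores it, while gamma-glutamyl transferase on the brush border of the proximal tubule begins its breakdown so that the parts can be taken up again. The kidney is among the organs with the highest turnover of glutathione, whose thiol group also binds cadmium.

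Of the 10 genes, Slc7a11 alone passed the test, at 12 weeks, and no other gene of the set passed in any comparison made here. Gclc, Gclm, Gss and Ggt1 stood higher with cadmium than with saline in every array at 6 weeks, without passing. These are 4 of 10 genes, against 10.5% of all genes with cadmium wholly higher then. The 4 genes vary together within groups, and marker lists of several cell types also stood apart at 6 weeks. Values are deposited log2 signals, and a change is the difference of mean log2 signals, cadmium minus saline. It is not a calibrated fold, since the summarization is not given in the sources used here and the scale ends at 19.93. A call is a limma adjusted p under 0.05 over all 22084 genes. The background level, 4.20, is the 95th percentile of the mean signals of 1272 odorant and vomeronasal receptor genes.

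The tissue label was checked against marker lists. All 14 proximal tubule, 10 distal nephron and collecting duct and 7 endothelial markers had means above background, as did the 4 podocyte markers measured of 6 listed. Array medians lay between 4.03 and 4.26, and the correlation over genes was 0.982 to 0.995 within groups and 0.979 to 0.995 between groups. The labels give no scan or extraction batch. Proximal tubule signal varied within groups: Slc5a2, the glucose carrier of the early proximal tubule, was lowest in cadmium 12 weeks replicate 3 (7.56), saline 12 weeks replicate 1 (9.88) and cadmium 1 day replicate 3 (11.14), against 11.82 to 16.24 in the other arrays. Whole-kidney signal cannot tell fewer cells of a type from less RNA per cell.

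Slc7a11 encodes the light chain of the exchanger that brings cystine in and lets glutamate out. At 12 weeks its signal was 4.64, 6.48 and 5.60 in the cadmium arrays and 3.62, 4.09 and 3.55 in the saline arrays. All 3 cadmium arrays lay above all 3 saline arrays and above the background level, which none of the other 15 arrays reached. Slc7a11 rose with cadmium, from 3.75 ± 0.29 to 5.57 ± 0.92 (SD, n = 3 each), a change of 1.82 (SE 0.31, 95% interval 1.16 to 2.47, limma adjusted p = 0.0199). Because the saline arrays were at background, the fitted change is no bound. Set against the background level instead, the observed cadmium mean was 1.38 log2 units higher, a value that includes no sampling error. Exact permutation of 3 against 3 arrays cannot give a two-sided p below 0.10. The call, the SE and the interval thus rest on the spread pooled by limma over all groups. The cadmium 12-week arrays had the widest spread of this gene (SD 0.92), while the other groups, at background, had SDs of 0.02 to 0.29. The interval may therefore be too narrow for this comparison. Among 17 alternative settings the change ran from 1.36 to 2.28, and the call was lost in 4: with only the 6 arrays compared (1.82, adjusted p = 0.486), without saline replicate 1 (1.75, adjusted p = 0.0569), without saline replicate 3 (1.72, adjusted p = 0.112), and without the 3 arrays of lowest Slc5a2 (1.74, adjusted p = 0.121).

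At the earlier times Slc7a11 was at background in both groups. At 1 day cadmium gave 3.63, 3.60 and 3.80 and saline 3.57, 3.55 and 3.76, with overlapping groups. At 6 weeks cadmium gave 3.58, 3.79 and 3.98 and saline 3.67, 3.62 and 3.66, again overlapping. Ordered by mean, cadmium at 12 weeks was followed by cadmium at 6 weeks (3.79), saline at 12 weeks (3.75), cadmium at 1 day (3.68), saline at 6 weeks (3.65) and saline at 1 day (3.63). The lower 5 groups all overlapped their neighbours in this order and lay below the background level, so their order carries no information. The change at 12 weeks exceeded that at 1 day by 1.77 (SE 0.43, limma unadjusted p = 0.00108, adjusted p = 0.372) and that at 6 weeks by 1.68 (SE 0.43, limma unadjusted p = 0.0016, adjusted p = 0.330). Neither difference passed over all genes, so the rise is not shown to differ between the times. Each passed in only 1 of 23 alternatives, the one without cadmium 12 weeks replicate 1 (2.24, limma adjusted p = 0.0076, and 2.15, limma adjusted p = 0.0206). That array was the lowest of its group, so leaving it out raises the difference and narrows the spread.

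**Figure D1:**
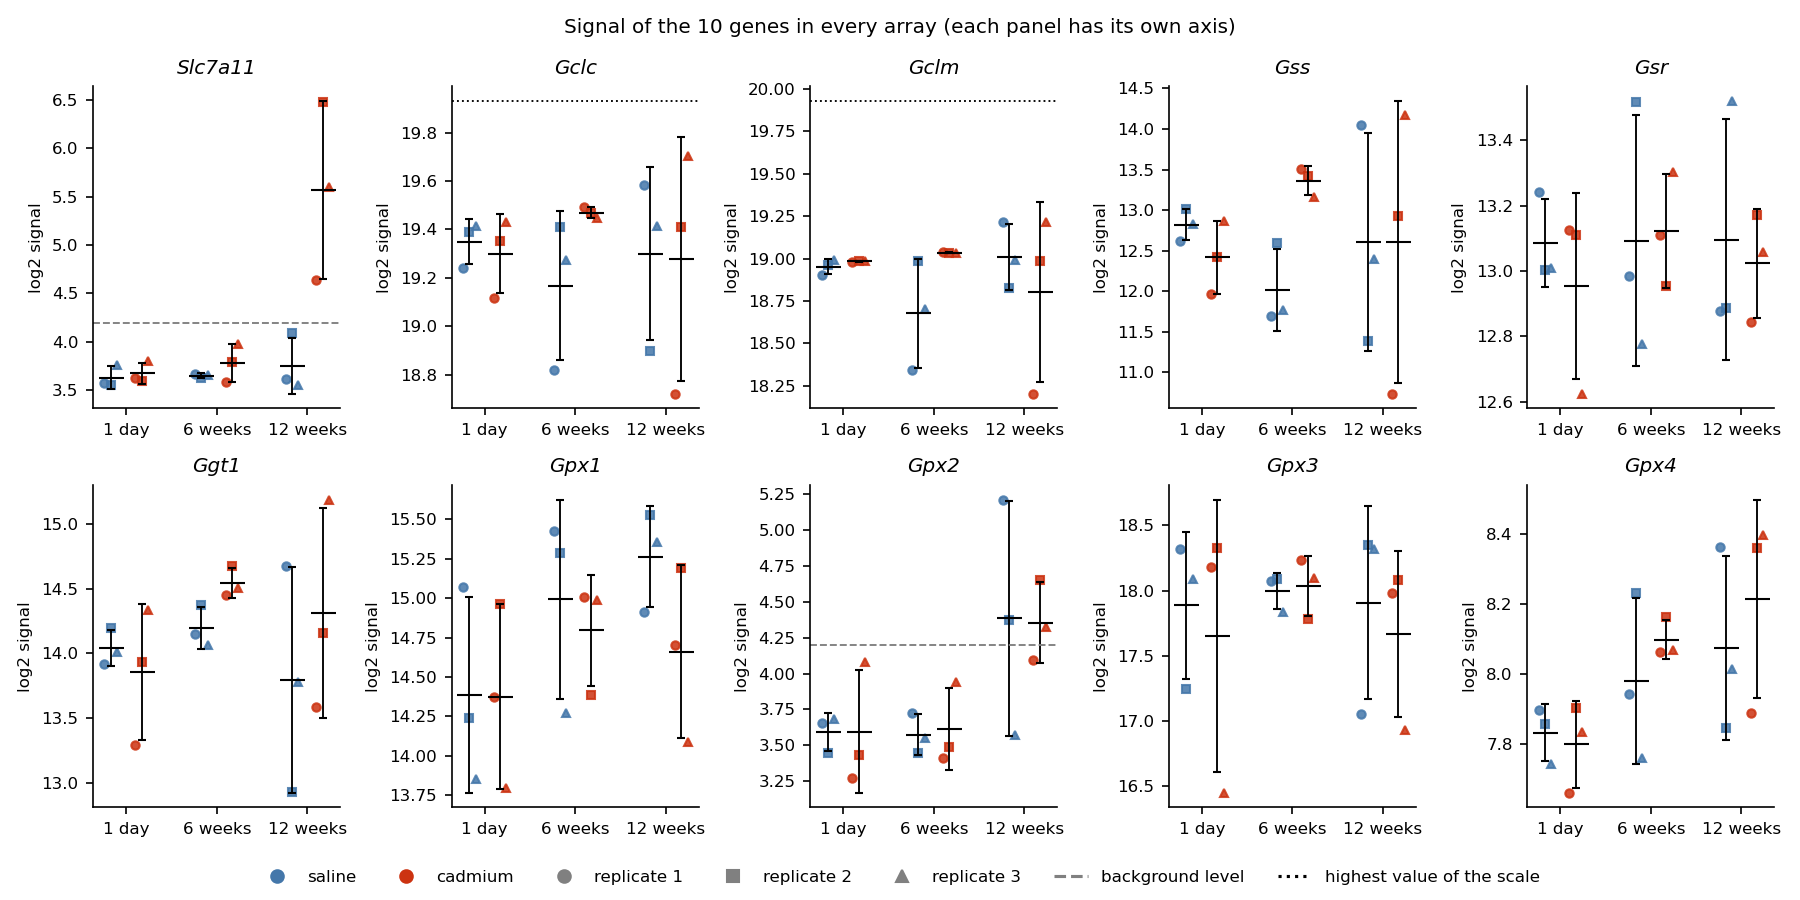
Log2 signal of each of the 10 genes in every array (points, coloured by treatment, with the replicate number as marker) by time, with group mean and SD (bars, n = 3). The dashed line is the background level of 4.20 and the dotted line the top of the scale at 19.93, each drawn where the data come near it, and in the panel of Slc7a11 the 3 cadmium 12-week arrays, 4.64 to 6.48, are the only ones above the dashed line.

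At 12 weeks 1 of the 10 genes rose and 0 fell, where 0.29% of all genes rose and 0.0362% fell (0.326% in all). Slc7a11 was also the only one of the 10 whose groups did not overlap at that time, against 7.92% of all genes with cadmium wholly higher and 7.07% wholly lower (15.0% in all). The median change of the 10 was -0.03, beside 0.0050 over all genes, with 4 of 10 on the higher side.

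Slc3a2, the heavy chain that carries Slc7a11 to the membrane and also serves other amino acid carriers, read 9.60, 9.81 and 8.77 with cadmium at 12 weeks and 9.05, 10.76 and 10.08 with saline. Its groups overlapped and its change of -0.57 (SE 0.50, limma adjusted p = 0.782) did not pass. The difference between the changes of the light and the heavy chain was not tested.

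The rat promoters in the RefSeq table (build GRCr8, 250 bases before the annotated start and 50 from it) were searched for the antioxidant response element core, TGACNNNGC, which NRF2 with small MAF proteins and the repressor BACH1 are known to bind, and for the amino acid response element core, TGATGNAA. Both strands were read. Entries were found for 9 of the 10 genes. The first motif was present in the windows of 2, Gclm and Gpx2, and in 12.1% of all 33469 windows of that length, and the second in none of the 9 and in 3.98% of all windows. The window of Slc7a11 is shown because this gene rose, and those of Gclm and Gpx2 because they hold the motif, in capitals as read on the strand of the gene (it reads TGACNNNGC on the opposite strand). The window of Slc7a11 lies at chr2:136668215-136668514 on the minus strand, that of Gclm at chr2:213031885-213032184 on the plus strand and that of Gpx2 at chr6:101229984-101230283 on the minus strand.
Slc7a11: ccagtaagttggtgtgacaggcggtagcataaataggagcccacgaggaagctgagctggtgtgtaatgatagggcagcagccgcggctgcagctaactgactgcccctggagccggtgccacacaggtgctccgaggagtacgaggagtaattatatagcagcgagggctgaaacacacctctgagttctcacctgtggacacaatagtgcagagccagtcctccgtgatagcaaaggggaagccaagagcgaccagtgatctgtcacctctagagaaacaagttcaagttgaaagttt
Gclm: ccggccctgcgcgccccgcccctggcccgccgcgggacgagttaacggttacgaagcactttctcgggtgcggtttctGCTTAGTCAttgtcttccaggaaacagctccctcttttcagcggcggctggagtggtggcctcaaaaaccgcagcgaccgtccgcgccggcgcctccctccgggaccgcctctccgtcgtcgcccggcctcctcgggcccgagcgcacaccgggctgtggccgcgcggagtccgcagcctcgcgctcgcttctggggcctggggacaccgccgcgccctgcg
Gpx2: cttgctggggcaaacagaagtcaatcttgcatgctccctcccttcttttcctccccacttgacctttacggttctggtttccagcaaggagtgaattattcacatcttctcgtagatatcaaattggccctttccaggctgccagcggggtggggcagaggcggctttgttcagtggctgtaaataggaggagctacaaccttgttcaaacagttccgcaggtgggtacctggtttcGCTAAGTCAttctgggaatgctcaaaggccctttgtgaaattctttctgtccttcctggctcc
The match in Gclm begins 172 bases before the start and that in Gpx2 13 bases before it. A match is a run of letters and not a measured binding site, and the absence of the letters from the window of Slc7a11 says nothing of sites elsewhere. RefSeq's annotation of Slc7a11, Gclc, Gss and Ggt1 also reaches farther upstream than the starts their windows are built on. Other starts of these genes were not searched, so the counts of genes with a match hold only for the windows read. Neither gene with a match passed in any comparison.

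Gclc, the catalytic subunit of glutamate-cysteine ligase, the enzyme that sets the pace of synthesis, was close to the top of the scale in every array. At 12 weeks it read 18.72, 19.41 and 19.70 with cadmium and 19.58, 18.90 and 19.42 with saline. The groups overlapped and the change was -0.02 (SE 0.22, 95% interval -0.50 to 0.46). At 1 day cadmium gave 19.12, 19.35 and 19.43 and saline 19.24, 19.39 and 19.42, a change of -0.05 with overlapping groups. At 6 weeks the cadmium arrays, 19.49, 19.47 and 19.45, all lay above the saline arrays, 18.82, 19.41 and 19.27. That change of 0.30 (SE 0.22, 95% interval -0.18 to 0.78, limma adjusted p = 0.670) did not pass. The highest array was 0.23 below the end of the scale, which leaves little room to record a higher level.

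Gclm encodes the modifier subunit, which makes the ligase more efficient. Its arrays at 6 weeks were 19.04, 19.03 and 19.03 with cadmium and 18.35, 18.99 and 18.71 with saline. The groups did not overlap, though saline replicate 2 came within 0.1 of them, and the change was 0.36 (SE 0.20, 95% interval -0.08 to 0.79, limma adjusted p = 0.587). At 12 weeks cadmium gave 18.20, 18.98 and 19.22 and saline 19.22, 18.83 and 18.99, overlapping, with a change of -0.21 (SE 0.20, 95% interval -0.65 to 0.23). At 1 day the arrays lay between 18.91 and 18.99 in both groups and the change was 0.03.

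Gss, glutathione synthetase, adds glycine in the final step. At 6 weeks it read 13.51, 13.42 and 13.16 with cadmium and 11.69, 12.60 and 11.77 with saline. All cadmium arrays were higher, and the change of 1.35 (SE 0.71, 95% interval -0.16 to 2.85, limma adjusted p = 0.553) was the largest of the 10 genes at that time but did not pass. At 12 weeks the arrays spread from 10.73 to 14.17 with cadmium (10.73, 12.92 and 14.17) and from 11.38 to 14.04 with saline (14.04, 11.38 and 12.40). Both means were 12.61, and the interval of the difference, -1.51 to 1.51, is wide. At 1 day cadmium gave 11.96, 12.42 and 12.87 and saline 12.62, 13.01 and 12.83, a change of -0.40 (SE 0.71) with overlapping groups.

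Gsr, glutathione reductase, restores glutathione from its oxidized form with NADPH. Its 18 arrays lay between 12.62 and 13.52, and its groups overlapped at every time. The changes were -0.13 at 1 day, 0.03 at 6 weeks and -0.07 at 12 weeks (95% interval -0.52 to 0.37).

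Ggt1, gamma-glutamyl transferase, cuts glutathione outside the cell. At 6 weeks it read 14.45, 14.67 and 14.50 with cadmium and 14.15, 14.37 and 14.06 with saline, groups that did not overlap. The change was 0.35 (SE 0.41, 95% interval -0.52 to 1.21, limma adjusted p = 0.799). At 12 weeks the arrays were 13.59, 14.15 and 15.19 with cadmium and 14.68, 12.93 and 13.78 with saline, overlapping, with a change of 0.51 (SE 0.41, limma adjusted p = 0.754). At 1 day the change was -0.19, with cadmium from 13.30 to 14.34 around the saline arrays of 13.92 to 14.19.

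The 4 peroxidases did not pass at any time. Gpx1, the widespread soluble enzyme, read 14.70, 15.19 and 14.09 with cadmium at 12 weeks and 14.91, 15.53 and 15.35 with saline. The lowest value was in the cadmium group and the highest in saline, but the groups overlapped, and the change of -0.60 (SE 0.39, 95% interval -1.45 to 0.24, limma adjusted p = 0.694) did not pass. Gpx3, the secreted form that the proximal tubule makes for the blood, read 17.98, 18.08 and 16.94 with cadmium at 12 weeks and 17.06, 18.34 and 18.32 with saline. One array of each group was low, those with the lowest Slc5a2 of their group, and the change was -0.24 (SE 0.48, 95% interval -1.26 to 0.77). Gpx4, which reduces lipid hydroperoxides in membranes, lay between 7.66 and 8.40 in all 18 arrays, and its changes were -0.03 at 1 day, 0.12 at 6 weeks and 0.14 at 12 weeks (95% interval -0.19 to 0.47).

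Gpx2, known from the gut epithelium, was above background in 4 of 18 arrays, all at 12 weeks: saline replicates 1 (5.21) and 2 (4.37) and cadmium replicates 2 (4.65) and 3 (4.32). The remaining 12-week arrays read 3.58 with saline and 4.09 with cadmium, and no array of the earlier times exceeded 4.08. Both treatments thus held arrays above the level at 12 weeks, and the cadmium change was -0.03 (SE 0.32). Over the 3 saline times no gene of the 10 passed limma's F test, where 0.398% of all genes did. Gpx2 was the 1 gene of the 10 with an unadjusted limma p under 0.05 there (0.0337), and its limma adjusted p was 0.403.

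**Figure D2:**
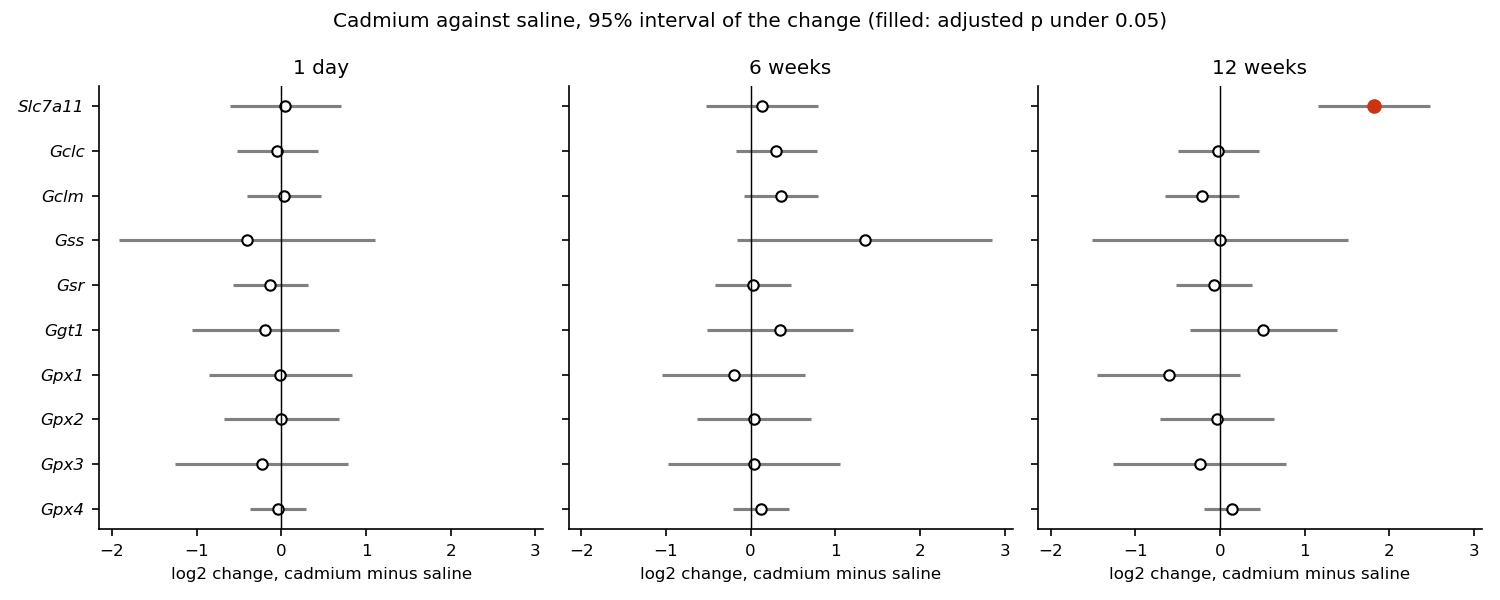
Change in mean log2 signal, cadmium minus saline, for the 10 genes at each time, with the 95% interval from limma as a line and a filled point for an adjusted p under 0.05. The interval of Slc7a11 at 12 weeks, 1.16 to 2.47, lies wholly above 0, and the other 29 intervals include 0. All use the spread pooled over the groups, and for Slc7a11 the cadmium 12-week arrays had the widest (SD 0.92), so that interval may be too narrow.

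At 6 weeks limma called 0 of the 10 genes, and none reached an unadjusted p under 0.05. Of all genes 0.0362% rose and 0.00453% fell, 0.0408% in all, and 2182 reached such a p. The groups of Gclc, Gclm, Gss and Ggt1 did not overlap, with cadmium higher, 4 of 10 genes against 10.5% of all genes. No gene of the 10 had cadmium wholly lower, against 8.04% of all genes (18.5% in either direction). Of the 10 genes 9 were on the higher side, with a median change of 0.13, beside -0.0042 over all genes. These 4 genes share arrays and, as described below, vary together within groups, so they are not 4 separate observations. The macrophage markers, of which Itgam and Cd163 were at background and 10 of 12 above it, also stood apart at 6 weeks: their mean signal was 6.50 to 7.11 with cadmium and 5.83 to 6.19 with saline. The red blood cell list, with Ahsp, Epb42, Rhag and Klf1 at background of 8 measured, was wholly higher as well, at 7.46 to 7.70 against 7.23 to 7.44. Lists of other kidney cells were wholly lower with cadmium at 6 weeks. The distal nephron and collecting duct list read 13.77 to 14.24 against 14.36 to 14.83 with saline, the endothelial list 10.61 to 10.88 against 11.07 to 11.16, and the podocyte list 8.29 to 8.91 against 9.25 to 10.05. The proximal tubule list, 15.10 to 15.79 with cadmium and 14.93 to 15.71 with saline, and the urothelial list, 3.62 to 3.93 and 3.70 to 3.90, overlapped. Thus 5 of the 7 marker lists stood apart at the time when these 4 genes did, and the part of tissue makeup in their values was not tested.

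At 1 day limma called 0.0% of all genes and 0 of the 10. An unadjusted p under 0.05 was reached by 433 genes in all and by 0 of the 10. None of the 10 had groups that did not overlap, against 2.35% of all genes with cadmium wholly higher and 2.88% wholly lower, 5.23% in all. The median change of the 10 was -0.04, beside -0.01 over all genes. The difference between the changes at 6 weeks and at 1 day was 1.75 for Gss (SE 1.00, limma adjusted p = 0.757), and no gene of the 10 passed in that comparison, where 0.00906% of all genes did, nor in those of 12 weeks with 6 weeks and with 1 day, where 0.0136% and 0.0408% did.

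Gclc, Gclm and Gss varied together from array to array inside groups. In cadmium 12 weeks replicate 1 all 3 were at their lowest of the series, 18.72, 18.20 and 10.73, and in replicate 3 of the same group they were at their highest of that group. Replicate 1 also had the highest distal nephron and collecting duct list of the series, 15.34, and the highest podocyte list of its group, 10.01. In saline 12 weeks replicate 2, with the next lowest Gss, the distal list read 14.09, beside 13.45 and 14.09 in replicates 1 and 3. The part of tissue makeup was not tested. After each gene was set relative to its group mean, Gclc and Gclm correlated over the 18 arrays with Pearson r = 0.927 (permutation p = 6e-05 within groups, adjusted p = 0.0027 over 45 pairs) and Spearman rho = 0.853 (permutation p = 1.8e-04, adjusted p = 0.0081). Without the 2 arrays farthest in Gclc r was 0.900. Gclc and Gclm both lie near the top of the scale. In saline 1 day replicate 3 and saline 12 weeks replicate 3 they read the same values, 19.41542 and 18.99126. The part that the end of the scale has in this correlation was not tested. Gss followed both, with r = 0.915 against Gclc (permutation p = 6.1e-04, adjusted p = 0.00975, rho = 0.837, 0.823 without 2 arrays) and r = 0.877 against Gclm (permutation p = 6.5e-04, adjusted p = 0.00975, rho = 0.833, 0.711 without 2 arrays). Ggt1 followed Gss at r = 0.927 by Pearson (permutation p = 0.00185, adjusted p = 0.0208, 0.912 without 2 arrays) and rho = 0.806 (permutation p = 0.00568, adjusted p = 0.058). Gpx1 and Gpx3 correlated with r = 0.701 (permutation p = 0.00513, adjusted p = 0.033, 0.681 without 2 arrays) and rho = 0.674 (permutation p = 0.00645, adjusted p = 0.058). The remaining pairs that passed by Pearson were Gclc with Ggt1 (r = 0.833, permutation adjusted p = 0.033), and Gpx4 with Gss (r = 0.868, permutation adjusted p = 0.0306) and with Ggt1 (r = 0.796, permutation adjusted p = 0.0438). Gpx3 ran opposite to Ggt1 (r = -0.742, permutation adjusted p = 0.0681) and Gss (r = -0.604, permutation adjusted p = 0.134) without passing. Of the 45 pairs 8 passed by Pearson, and Gclc, Gclm and Gss gave the 3 that also passed by Spearman.

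Slc7a13 and Slc5a2, segment markers from the list of 14 for the proximal tubule, were set beside these genes array by array. They were picked after their values were seen, and no correlation with them was computed. Values of the other markers of that list are not given here, so Slc7a13 and Slc5a2 need not speak for their segments. In cadmium 12 weeks replicate 3 they went apart, with Slc7a13 at 19.92 and Slc5a2 at 7.56. Slc7a13, a cystine and acidic amino acid carrier of the last segment, was at 17.39 in cadmium 12 weeks replicate 1 and 17.36 in saline 12 weeks replicate 2, the arrays where Gss was lowest (10.73 and 11.38), against 18.48 to 19.93 elsewhere. At 6 weeks Slc7a13 read 19.89, 19.88 and 19.69 with cadmium and 18.48, 19.24 and 19.02 with saline, apart as Gclc, Gclm, Gss and Ggt1 were. These cadmium values lie near the end of the scale at 19.93, and the proximal tubule list as a whole overlapped at that time. Slc5a2, of the first segment, was at 7.56, 9.88 and 11.14 in the 3 arrays where Gpx3 was lowest (16.94, 17.06 and 16.45). The part that the sampled region of the kidney has in these values was not tested. Beside the rise of Slc7a11, the mean signal of the 14 proximal tubule markers at 12 weeks was 13.48 to 15.39 with cadmium and 14.27 to 15.93 with saline, overlapping, and the macrophage list, 6.05 to 6.65 and 6.04 to 6.19, overlapped as well. The distal nephron and collecting duct list, 13.74 to 15.34 and 13.45 to 14.09, and the podocyte, endothelial and red blood cell lists also overlapped. The urothelial list, with Upk3a, Upk3b, Krt20 and Tp63 at background of 8 measured, lay at 3.74 to 4.08 and 3.64 to 3.75, near background.

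**Figure D3:**
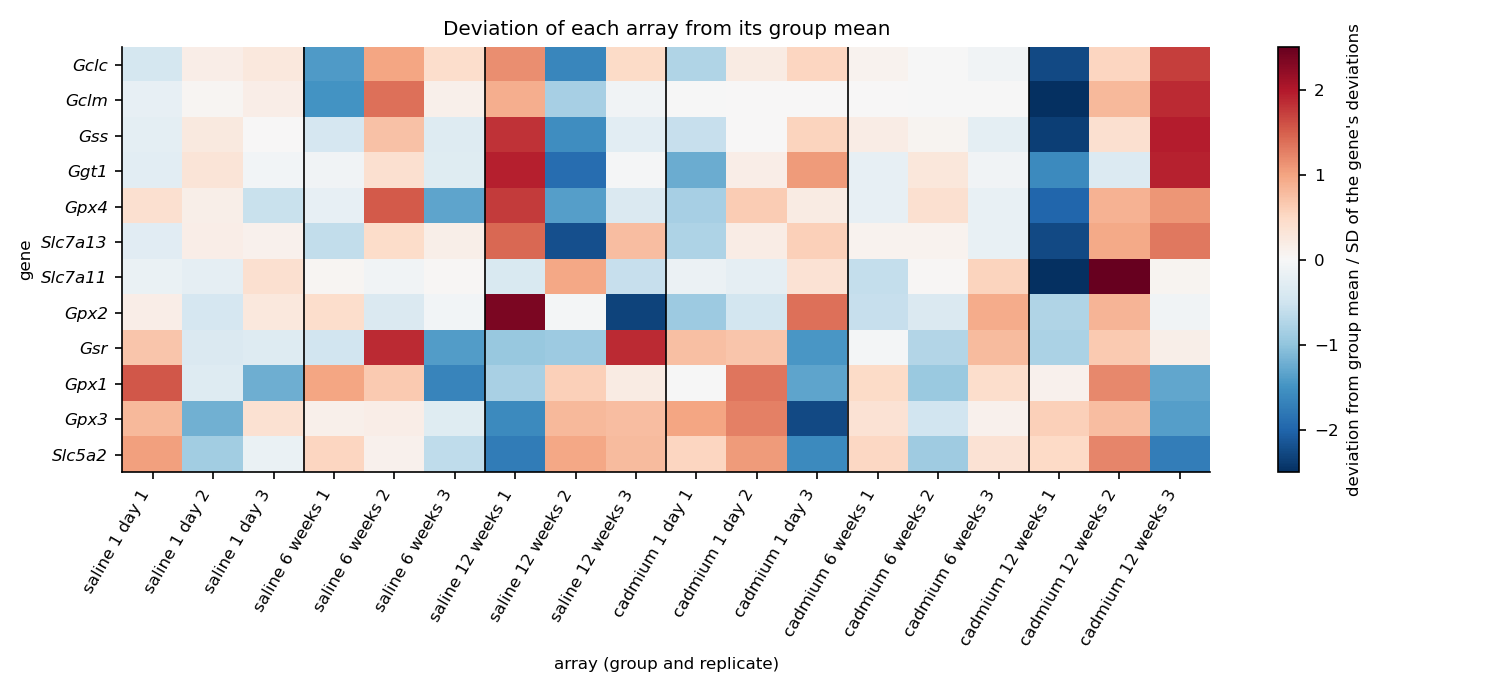
Deviation of each array (columns, by group and replicate) from its group mean for each gene (rows), divided by the SD of that gene's deviations, on a colour scale that stops at 2.5 in either direction. Gclc, Gclm, Gss and Ggt1 are below their group means together with Slc7a13 in cadmium 12 weeks replicate 1 and saline 12 weeks replicate 2. Slc7a13 and Slc5a2 are proximal tubule markers picked after their values were seen. The direction of Slc7a13 is not shared in every array: in saline 12 weeks replicate 3 Slc7a13 deviates by 0.54 and Gss by -0.21. Gpx3 shares its low arrays with Slc5a2.

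Likeness to Slc7a11 was ranked only among genes with a mean over all arrays above background and no provisional symbol. Slc7a11 itself, with a mean of 4.01, lies below that level, so genes as low as it were not ranked. The ranked genes whose signals over the 18 arrays were most like Slc7a11, each centred on its own mean, were Ccl9, a chemokine (mean absolute difference 0.241), Zfand2a, an arsenite-inducible zinc finger protein of the proteasome (0.275), and Cldn17, a claudin of tight junctions (0.297). Their 12-week changes were 1.55 (SE 0.22, limma adjusted p = 0.0054), 1.42 (SE 0.19, limma adjusted p = 0.0032) and 1.81 (SE 0.35, limma adjusted p = 0.0434). The call of Cldn17 held in 9 of 17 alternatives, and those of Ccl9 and Zfand2a in 16 of 17 each. Likeness here mostly restates the 12-week rise, since Slc7a11 is flat elsewhere.

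The wider pathway was read from 8 lists. They were chosen with earlier results of these data known, so a count above the share of all genes is a description and no test of a list. Among 9 carriers for glutathione export and mitochondrial import, 2 rose at 12 weeks and 0 fell, where 0.29% of all genes rose and 0.0362% fell. Abcc2, an export pump for glutathione conjugates, read 15.29, 15.26 and 13.41 with cadmium and 8.93, 10.18 and 8.62 with saline. The groups were far apart, and the change was 5.41 (SE 0.61, limma adjusted p = 0.0011). Abcc3, a related pump of the basolateral membrane, rose by 1.44 (SE 0.25, limma adjusted p = 0.0201), from 7.24 to 7.79 with saline to 8.23 to 9.54 with cadmium, a call held in 12 of 17 alternatives and lost with only the arrays compared (adjusted p = 0.471) and without saline replicate 2 (0.0912) or 3 (0.118) or cadmium replicate 1 (0.0849) or 2 (0.0607). Abcc1, another exporter, changed by 0.65 without passing (limma adjusted p = 0.0905).

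Among 16 genes that control the pathway or report on that control, 3 rose at 12 weeks and 0 fell, against the same 0.29% and 0.0362% of all genes. Hmox1, heme oxygenase, a target of NRF2 and BACH1, read 13.35, 15.74 and 12.60 with cadmium and 4.91, 5.0 and 4.66 with saline, a change of 9.04 (SE 0.55, limma adjusted p = 2.28e-06). At 6 weeks it read 8.21, 7.16 and 8.52 against 5.08, 5.30 and 4.84, groups that did not overlap, and its change of 2.89 (limma adjusted p = 0.0953) did not pass. Within the cadmium group its highest array was replicate 2, as for Slc7a11, whereas the lowest was replicate 3 for Hmox1 and replicate 1 for Slc7a11. Bach1, the repressor, rose by 1.18 (SE 0.15, limma adjusted p = 0.0027), with 9.95, 10.27 and 10.03 against 9.09, 8.68 and 8.96. Txnrd1, thioredoxin reductase, rose by 1.53 (SE 0.21, limma adjusted p = 0.0033), with 12.18, 12.71 and 12.14 against 11.08, 10.47 and 10.89. The calls of Abcc2, Hmox1, Bach1 and Txnrd1 held in 16 of 17 alternatives each, the exception being the fit of only the arrays compared. Nfe2l2, which encodes NRF2, changed by 0.06 and its inhibitor Keap1 by -0.03, and neither passed.

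No gene of the other 6 lists passed at 12 weeks, and none of the 8 lists had a gene that passed at 1 day or 6 weeks. The 8 measured genes of glutamate and glycine supply were all on the lower side at 12 weeks, with a median of -1.05 beside 0.0050 over all genes. Of all genes 51.1% were on the higher side. Cadmium stood wholly lower in 2 of the 8, against 7.07% of all genes, and the groups of the others overlapped. The 8 genes share arrays, and the part of tissue makeup in their values was not tested. Psph and Psat1, both of serine synthesis, had the smallest p values of this list, with changes of -2.0 (SE 0.73, limma adjusted p = 0.404) and -1.40 (SE 0.67, limma adjusted p = 0.563). In transsulfuration and cysteine use 3 of 12 were higher (median -0.14), with Bhmt, which remakes methionine, at -1.67 (SE 0.54, limma adjusted p = 0.316) and Cbs, the first transsulfuration enzyme, at -0.71. In cystine, cysteine and glutamate transport 4 of 11 were higher (median -0.20), with the cystine carrier subunit Slc3a1 at -0.20 and Slc7a5 at 0.64. Glutathione breakdown had 5 of 11 higher (median -0.05), with Ggt5 at -0.93 and Oplah at -0.48. Other peroxidases, glutaredoxins and glutathione users had 2 of 12 higher (median -0.06), with Esd at -0.45 and Glrx5 at -0.11. In selenium supply and selenoprotein synthesis 4 of 11 were higher (median -0.30), with the selenocysteine elongation factor Eefsec at -0.86 (SE 0.19, limma adjusted p = 0.0975) and Sephs2 at -0.60.

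At 6 weeks the list medians were 0.45 for transport and 0.48 for transsulfuration, and the other 6 lay between 0.12 and 0.23, beside -0.0042 over all genes. Cadmium stood wholly above saline in 5 of 11 transport genes and 7 of 12 transsulfuration genes, against 10.5% of all genes. The same held for 7 of 16 control genes, with 2 wholly lower, against 8.04% of all genes wholly lower. It held for 3 of 9 export and import genes and 3 of 11 breakdown genes. In the remaining lists it held for 2 of 11 selenium, 1 of 8 glutamate and glycine supply and 0 of 12 peroxidase, glutaredoxin and user genes. The transport genes counted include Slc3a1, which was close to the end of the scale, with means of 19.93 with cadmium (SD 0.0) and 19.87 with saline, a change of 0.06. The genes wholly higher also included Mat2a, which makes S-adenosylmethionine (1.56, SE 0.50, limma adjusted p = 0.346), Cth, which releases cysteine (1.23, SE 0.65, limma adjusted p = 0.561), and the neutral amino acid carrier Slc1a4 (1.06, SE 0.38, limma adjusted p = 0.396). None passed. The Slc7a13 values at 6 weeks apply to these genes too, though the proximal tubule list as a whole overlapped. So do the marker lists that stood apart then (macrophage and red blood cell higher, distal nephron, endothelium and podocyte lower with cadmium). The part of these markers in the values of the pathway genes was not tested.

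**Figure D4:**
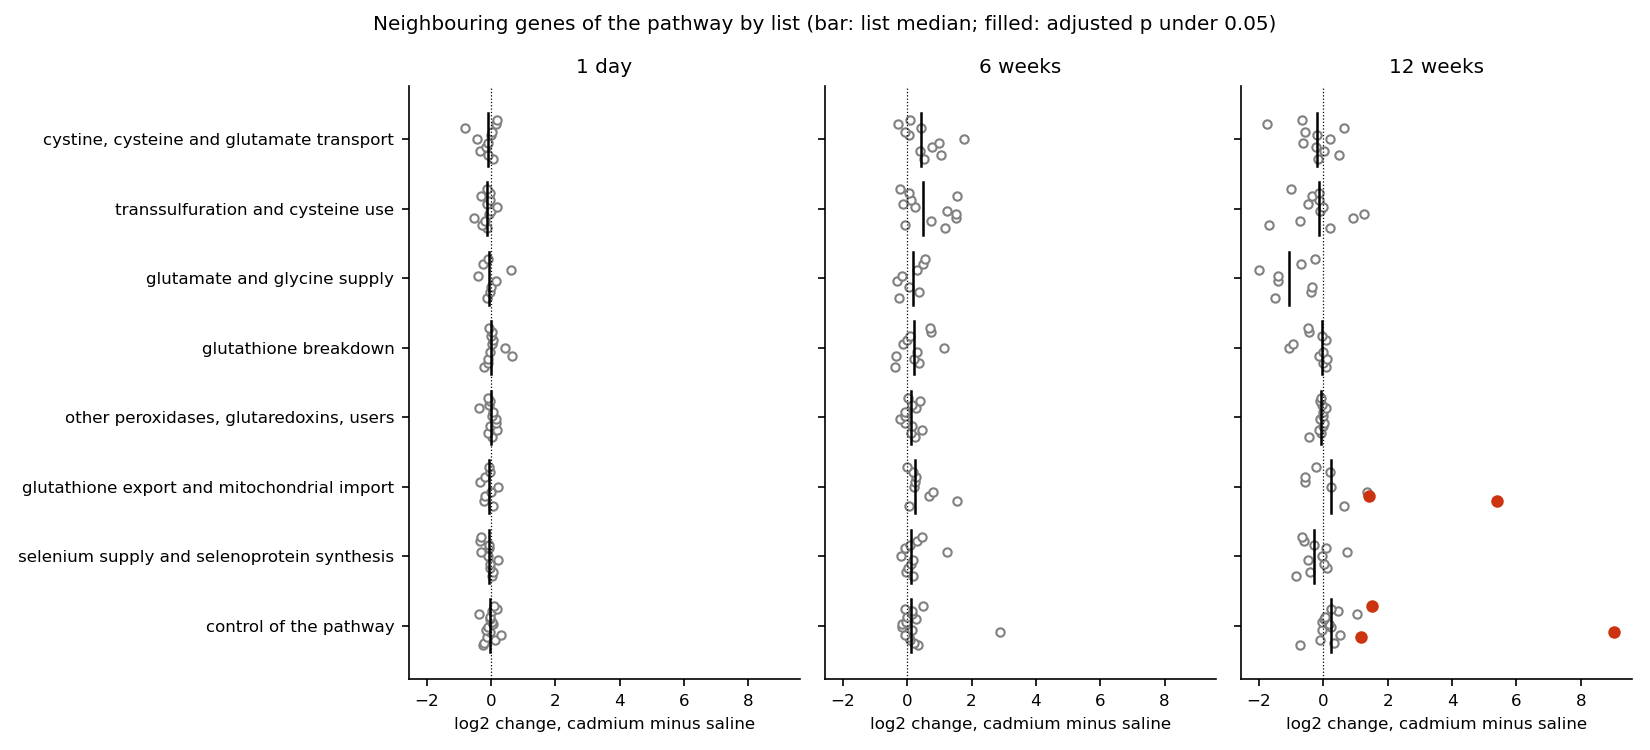
Change in mean log2 signal, cadmium minus saline, of the genes of 8 pathway lists (rows) at each time, with 1 point for each gene, a black bar for the list median and filled points for an adjusted p under 0.05. The 5 filled points are Abcc2, Abcc3, Hmox1, Bach1 and Txnrd1 at 12 weeks.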

How the data were processed

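Total RNA of whole rat kidney after saline or cadmium was hybridized to 18 Affymetrix arrays. The authors deposited log2 signals per probe set, per the file headers and the range of the values. Summarization, normalization and scan batches are not given in the sources used here. Arrays have no depth in reads, so precision depends on their number and on signal over background. Of 70570 probe sets 186 were controls, 23437 named 1 gene, 505 several and 46442 none. The brightest probe set naming only a gene stood for it (22084 genes, 14078 above background). No value was filtered, dropped or imputed.

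Group means of all 18 arrays were fitted in limma 3.58.1 (R 4.3.3, tables read with data.table, version 1.17.8) by lmFit, then contrasts.fit and eBayes, as two-sided tests with Benjamini-Hochberg adjustment over all genes within each contrast (degrees of freedom 12 residual, 2.45 prior). The fit was tested on simulated data. Correlations used 100000 permutations within groups of deviations from group means (Python 3.11.15, numpy 2.4.6, scipy 1.17.1). Figures were drawn with matplotlib 3.10.9 and tables handled with pandas 2.3.3. Promoter sequences are from RefSeq (GRCr8).

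The 10 genes, the lists, the motifs and the background rule were chosen with earlier results of these data known. Named genes were the 10, every list gene past the threshold, otherwise up to 2 of a list by the smallest p at 12 weeks, and the 3 genes most like Slc7a11 among those with a mean above background and no provisional symbol. Hmox1 stands for scale. Slc3a2, Slc7a13, Slc5a2, Abcc1, Nfe2l2, Keap1 and the list genes named at 6 weeks were chosen after their values were seen, as was the alternative without the 3 arrays of lowest Slc5a2. The other alternatives were normalization, array weights, eBayes settings, a background filter, the choice of probe sets, a marker covariate, the replicate number as a block, only the arrays compared, and leaving out each replicate.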

Additional observations from a re-analysis of the deposited data

How the results depend on the processing

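Slc7a11 at 12 weeks kept its direction under all 17 alternatives, 1.36 to 2.28 with 1 replicate left out, and its call in 13. The other 9 genes gave 459 alternative values over the 3 times, of which 0 were called and 58 lay on the other side of 0. The numbers 1 to 3 did not pair the arrays: deviations from group means correlated at -0.469 to 0.433 for the same number (2 of 9 over 0.1) and at -0.528 to 0.515 for different numbers (6 of 18). With the replicate number as a block Slc7a11 was called (1.82, limma adjusted p = 0.0242) and Cldn17 was not (limma adjusted p = 0.0812), and 3 genes of all passed at 6 weeks, 52 at 12 weeks and 32 over the saline times, against 9, 72 and 88. Other counts of all genes that moved by over 1.5 times were, at 6 weeks, 500 with array weights, 14 with trend and robust, 3 with all transcript clusters and 40 with only the arrays compared; at 12 weeks, 127, 132 and 0 with array weights, all clusters and only the arrays compared (with 1864 at an unadjusted limma p under 0.05 in the last). For the change at 12 weeks minus 6 weeks (3) they were 7 with quantile normalization, 5 with centring, 14 with weights, 6 with the marker covariate, 1 with only the arrays compared and 10 without the 3 arrays of lowest Slc5a2. For 12 weeks minus 1 day (9) they were 20 with quantile normalization, 26 with weights, 16 with trend and robust, 15 with the background filter, 19 with the covariate and 1 with only the arrays compared. For 6 weeks minus 1 day (2) weights gave 7, and for the saline times weights gave 292, all clusters 38 and only the arrays compared 11. With 1 replicate left out the counts ran from 0 to 0 at 1 day, 2 to 32 at 6 weeks, 33 to 108 at 12 weeks, 0 to 17 (0 without saline 6 weeks replicate 2, where 3075 had an unadjusted limma p under 0.05), 6 to 20 and 2 to 5 for the 3 differences in the order above, and 19 to 143 over the saline times.

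Values on the other side of 0, none called and with the cause not tested, were these. With array weights they were Gpx1 at 0.034, Gpx2 at -0.15 and Gpx3 at 0.18 after 1 day, Gpx2 at -0.084 after 6 weeks, Gclc at 0.10 and Gpx2 at 0.28 after 12 weeks. With centring they were Gsr at -0.025, Gpx2 at -0.016 and Gpx3 at -0.014 after 6 weeks, Gss at -0.012 after 12 weeks. With the covariate they were Gpx1 at 0.022 and Gpx2 at -0.012 after 1 day, Gpx3 at -0.026 after 6 weeks, Gss at -0.54, Gsr at 0.14 and Gpx3 at 0.48 after 12 weeks. With quantile normalization they were Gpx1 at 0.016 and Gpx2 at -0.0050 after 1 day, Gsr at -0.17 and Gpx4 at -0.0021 after 6 weeks, Gsr at 0.12 after 12 weeks. With those 3 arrays left out they were Slc7a11 at -0.014, Gsr at 0.034, Gpx1 at 0.28, Gpx2 at -0.24 and Gpx3 at 0.37 after 1 day, Gss at -0.064 and Gpx2 at 0.40 after 12 weeks. With 1 replicate left out, ranges that crossed 0 were Slc7a11 -0.014 to 0.12, Gclc -0.11 to 0.043, Gsr -0.22 to 0.034, Ggt1 -0.43 to 0.093, Gpx1 -0.31 to 0.33, Gpx2 -0.24 to 0.16, Gpx3 -0.57 to 0.37 and Gpx4 -0.085 to 0.036 after 1 day, Gsr -0.13 to 0.24, Gpx1 -0.56 to 0.018, Gpx2 -0.12 to 0.14 and Gpx3 -0.058 to 0.17 after 6 weeks, Gclc -0.23 to 0.26, Gclm -0.42 to 0.088, Gss -0.78 to 0.94, Gsr -0.18 to 0.14, Gpx2 -0.44 to 0.38 and Gpx3 -0.67 to 0.12 after 12 weeks, and the change of Slc7a11 at 6 weeks minus that at 1 day, -0.010 to 0.19.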
